A study of Mus musculus with 6 samples.

Results

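The ubiquitin-specific proteases were described in whole mouse testis as the genes whose symbol is Usp followed by a number and, in some cases, lower-case letters or digits. This rule found 53 of the 38715 genes in the deposited table. Of these, 3 are not proteases: Usp6nl encodes a GTPase-activating protein for Rab proteins, and Usp46os1 and Usp46os2 are non-coding genes on the strand opposite Usp46. Some of the rest, among them Usp39 and Usp50, are thought to have little or no protease activity. The data came from 6 testis RNA libraries, 3 titled Control and 3 titled Middle. By the series' design text, testes of control mice were set beside testes of mice exposed to MES, in early life by its title. Middle is taken here to be the exposed group, as the titles hold Control and Middle alone. The sources used here do not spell out MES or state its dose, or the strain and age of the mice. Whether each library is from its own animal is also unstated, and the p-values then measure only how far these libraries spread.

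Ubiquitin is a small protein that is joined to other proteins, often to send them to the proteasome, and deubiquitinating enzymes take it off again. The ubiquitin-specific proteases are the largest family of these enzymes and share a cysteine protease domain. In the testis, ubiquitin is known for its part in the exchange of histones, in meiosis and in the removal of cytoplasm and organelles as spermatids elongate.

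Depth, as reads over all genes, ran from 38820385 to 58389391 per library. Values are RPKM, reads scaled to gene length and library total, so levels can be compared between genes. Markers of spermatids, spermatocytes, Sertoli cells and Leydig cells were measured in every library, while the 3 epididymis markers in the table summed to at most 0.042 RPKM in any library. Whole tissue was measured, so fewer cells of a type and less RNA per cell cannot be told apart in any value below. Middle replicate 1 stood apart from the other libraries: chi-square per degree of freedom against the other Middle libraries was 34.4 and 24.7, where the other same-group pairs gave 6.26 to 10.98.

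The family covered a wide range of levels. Over the 6 libraries, 3 members had a mean of at least 50 RPKM, 14 lay between 10 and 50, 25 between 1 and 10, and 11 below 1. The median of the member means was 3.99 RPKM, against 0.355 over all genes in the table. The summed RPKM of the family was 789, 807 and 769 in Control replicates 1 to 3 and 653, 787 and 752 in Middle replicates 1 to 3. The lowest sum was that of Middle replicate 1, and the other 2 Middle libraries lay close to the Control range. The top 2 members made up 36.3% of the family's mean sum and the top 8 made up 68.8%. In the order of levels, 39 of the 52 neighbouring pairs had ranges over the 6 libraries that overlapped, so most neighbours were not separated beyond their spread.

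**Figure D1:**
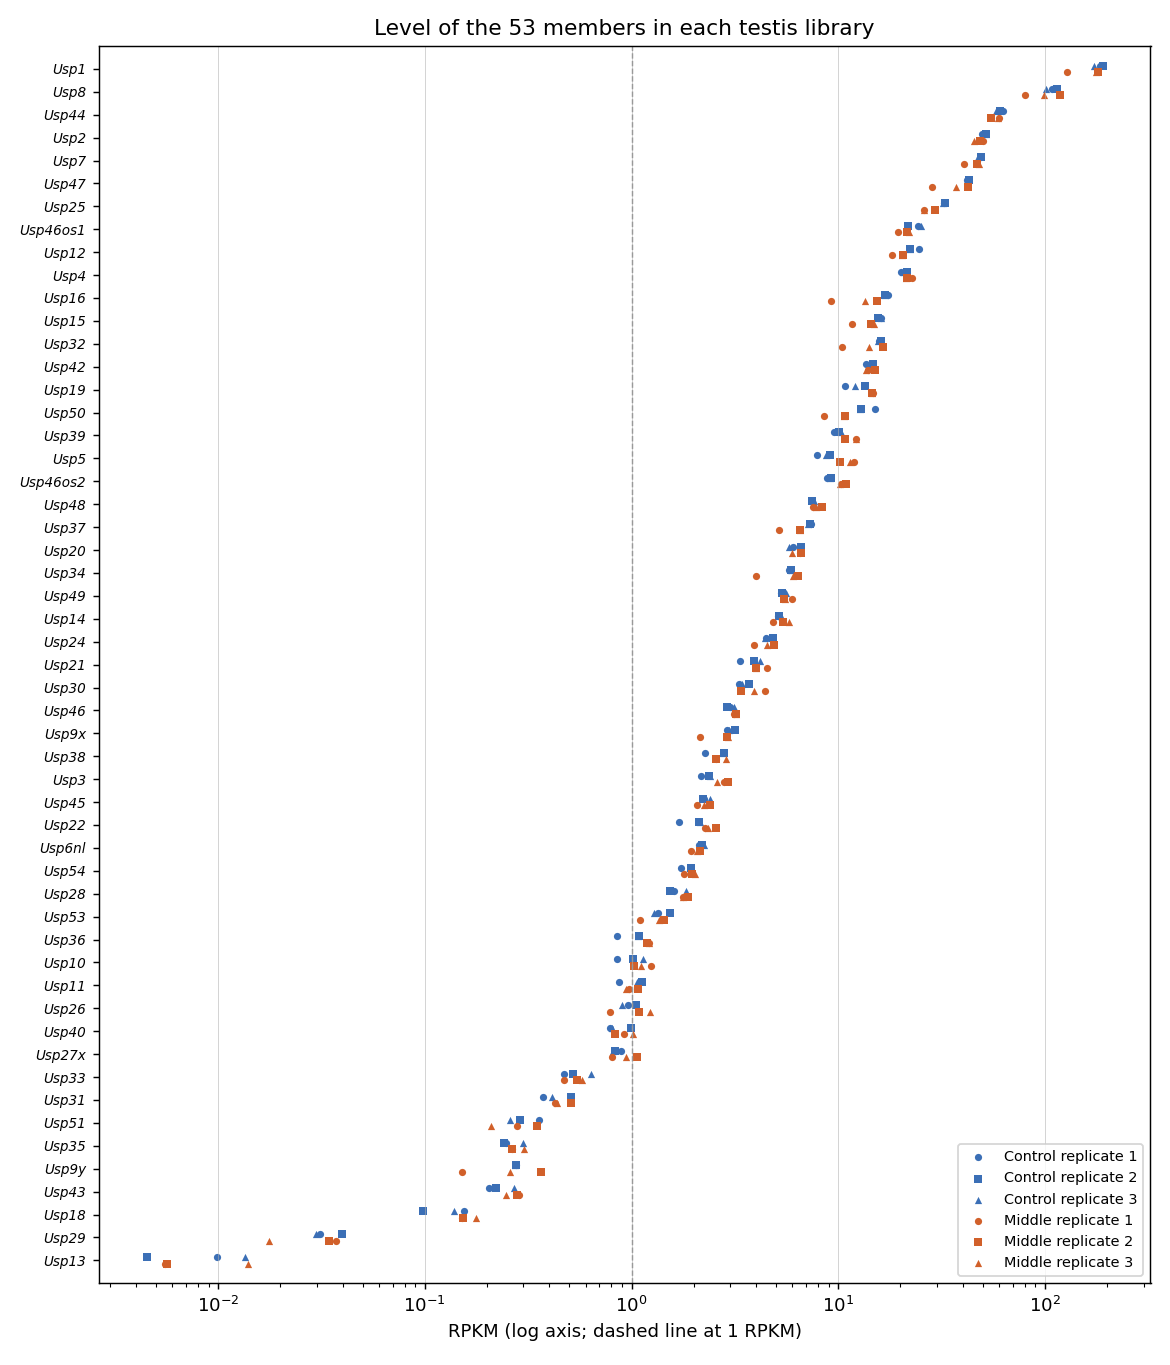
RPKM of each of the 53 members in each library on a log axis, ordered by the mean over the 6 libraries, with Control above and Middle below each line. Usp1 and Usp8 lead the order and Usp13 ends it, and the circle of Middle replicate 1 lies left of the other libraries for members such as Usp1, Usp16, Usp32 and Usp34.

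Usp1, which with its partner WDR48 takes ubiquitin off FANCD2 and PCNA during DNA repair, was the most abundant member (chromosome 4, 98812047 to 98823780, GRCm39). Its level was 185, 190.4 and 172 RPKM in Control replicates 1 to 3 and 128, 180.3 and 176 in Middle replicates 1 to 3. By mean level it ranked 419 of all 38715 genes. Male mice without Usp1 are known to be infertile. Usp8, an enzyme of endosomal sorting that is also linked to the acrosome, followed at 109, 114 and 101 RPKM in Control and 79.8, 118 and 99.5 in Middle. In both genes the lowest library was Middle replicate 1, and the other 5 libraries lay together.

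Usp50, a relative of Usp8, lies on the other strand of the Usp8 locus: on chromosome 2 of GRCm39, Usp8 spans 126549248 to 126601217 and Usp50 spans 126551016 to 126625390, so 50202 bases lie in both spans, with no shared exon bases. The promoters of these interleaved neighbours, and of Usp19, whose difference described further on had the opposite sign to that of Usp50, are shown as the 250 bases before the start in RefSeq for GRCm38.p6, each on its gene's strand. Capitals mark matches to 4 motifs on either strand: the cAMP response element core TGACGT, the GC box GGGCGG, the CCAAT box CCAAT and the TATA box TATAAA.
Usp8, chr2:126707078-126707327, plus strand: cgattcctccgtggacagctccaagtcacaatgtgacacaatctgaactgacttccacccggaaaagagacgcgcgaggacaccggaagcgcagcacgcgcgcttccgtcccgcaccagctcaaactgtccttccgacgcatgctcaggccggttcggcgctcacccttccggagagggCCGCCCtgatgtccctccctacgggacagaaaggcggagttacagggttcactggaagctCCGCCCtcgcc
Usp50, chr2:126783461-126783710, minus strand: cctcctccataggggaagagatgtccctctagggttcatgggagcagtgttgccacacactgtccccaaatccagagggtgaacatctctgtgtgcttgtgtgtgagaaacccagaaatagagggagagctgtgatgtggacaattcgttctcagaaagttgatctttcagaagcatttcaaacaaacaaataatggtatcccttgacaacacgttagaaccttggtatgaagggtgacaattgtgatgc
Usp19, chr9:108490426-108490675, plus strand: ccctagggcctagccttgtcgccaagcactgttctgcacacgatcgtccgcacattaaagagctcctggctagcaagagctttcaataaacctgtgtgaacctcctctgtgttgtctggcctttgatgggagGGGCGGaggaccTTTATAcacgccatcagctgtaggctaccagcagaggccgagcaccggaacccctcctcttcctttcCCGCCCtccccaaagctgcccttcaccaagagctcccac

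The Usp8 promoter held 2 GC boxes and was 62.8% G and C, and the Usp50 promoter held none of the 4 motifs and was 46% G and C. The Usp19 promoter held 2 GC boxes and 1 TATA box match and was 57.6% G and C. RefSeq promoters were matched for 40 members, with 41 entries. A GC box was found in 27 of the 41 (65.9%), beside 32.7% of all 32851 promoters of the same length. The shares were 9.76% and 6.47% for TGACGT, 24.4% and 33.9% for CCAAT, and 4.88% and 12.4% for TATAAA. These are matches of letters only. The 32851 promoters were not limited to coding genes or to genes expressed in testis, so they are not a matched set for the members.

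Usp44, which acts in the mitotic spindle checkpoint and on histone H2B, was at 62.8, 60.7 and 57.9 RPKM in Control and 60.1, 54.8 and 59.1 in Middle. Usp2, an enzyme with a part in the circadian clock whose loss is known to lower male fertility in mice, was at 49.7, 51.8 and 51.6 RPKM in Control and 49.97, 48.7 and 45.6 in Middle. The groups overlapped for both genes. In the order of levels, the ranges of Usp1, Usp8, Usp44 and Usp2 did not overlap with that of the next member above or below within these 4. Usp7, the protease of p53 and its ligase MDM2, averaged 48.3 ± 0.95 RPKM in Control against 45.2 ± 3.87 in Middle, and its range overlapped that of Usp2 (SD, n = 3 each here and below). Usp47, which acts on a DNA polymerase of base excision repair, was at 42.3 ± 0.43 and 35.96 ± 7.18 RPKM, and the SD in Middle came with a value of 28.3 in replicate 1 against 42.6 and 36.95 in replicates 2 and 3.

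Related members were expressed at unequal levels. The sets of related proteins compared here were chosen from textbook knowledge after levels had been seen, and the ratios are a description. Usp2 lay 11.1 to 14.9 times above Usp21 over the 6 libraries, and Usp44 lay 10 to 11.9 times above Usp49. Reads of Usp49 are uncertain, since 51.2% of its exon bases are shared with Gm20517. Usp25 lay 14.7 to 21.3 times above Usp28, and Usp42 lay 11.2 to 15.9 times above Usp36. Usp20 was 9.04 to 13.8 times above Usp33. Usp12 was 5.77 to 8.19 times above Usp46, and both of these work with WDR48. Usp37, a protease of cyclin A, was 5.30 to 7.96 times above its relative Usp26. In each of these sets the same member was the higher one in all 6 libraries. The closest sets in level were Usp4 and Usp15, with a median ratio of 1.40, and Usp54 and Usp53, with a median ratio of 1.42. Of the 16 pairs compared, 6 had a lower ratio in every Middle library than in every Control library, 1 had a higher ratio (Usp4 over Usp15) and 9 overlapped. The 6 were Usp2 over Usp21, Usp12 over Usp46, Usp25 over Usp28, Usp42 over Usp36, Usp16 over Usp45 and Usp37 over Usp26. These counts are a description with no test, and no share over other gene pairs was computed beside them. Among all single genes tested, 17.9% lay higher and 11.4% lower in Middle without overlap. Those are shares of genes and not of ratios, so whether the pair counts are unusual cannot be read from them. Usp4, Usp22 and Usp37 are each in more than 1 pair, so the pairs are not independent. GC content was not taken into account in the ratios.

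**Figure D2:**
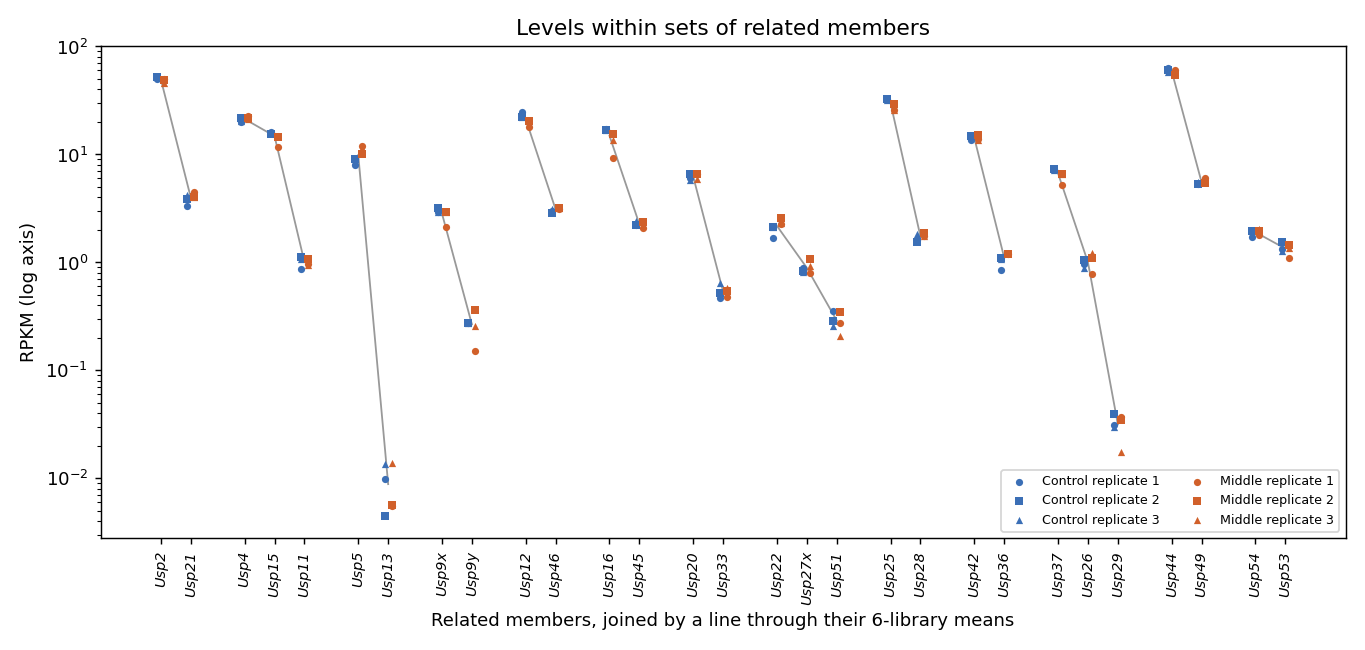
RPKM on a log axis of related members in each library, with a grey line through the means over the 6 libraries of each set. The drop within a set is seen in all 6 libraries, from Usp54 and Usp53 at 1.91 and 1.34 RPKM to Usp5 and Usp13, where Usp13 holds 2 to 6 reads per library.

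Usp5 and Usp13, which take apart free ubiquitin chains, differed most. Usp5 had a mean of 9.88 RPKM, while Usp13 held 2 to 6 reads per library, at or under the limit of 6 reads that a count of 0 allows when reads come in pairs, so no ratio is given. That limit covers counting error only. Usp14, the deubiquitinase bound to the proteasome, whose loss in mice is known to disturb spermatogenesis, was at 5.10, 5.16 and 5.27 RPKM in Control and 4.86, 5.41 and 5.78 in Middle, so Middle lay on both sides of Control. A share of 25.99% of its exon bases overlaps Thoc1 on the other strand, and whether the counting used strand is unstated in the sources used here, so the reads of such pairs may not be told apart.

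Members on the sex chromosomes lay low. Of the 5 members on the X chromosome none reached a mean of 5 RPKM, while 25 of 47 autosomal members did. Over all genes of the table, 13.2% of X chromosome genes and 20.1% of autosomal genes reached 5 RPKM. Usp9x, a large protease that acts among others on SMAD4, was the highest of the 5 with 2.91, 3.17 and 2.95 RPKM in Control and 2.14, 2.91 and 2.93 in Middle. Usp26, a testis gene whose protein is known to bind the androgen receptor, was at 0.964, 1.05 and 0.898 RPKM in Control and 0.787, 1.09 and 1.23 in Middle. The Y-linked Usp9y was at 0.277, 0.275 and 0.274 RPKM in Control and at 0.151, 0.365 and 0.258 in Middle, from 58 to 138 reads per library. Middle held both the lowest and the highest value of Usp26 and of Usp9y. Usp9x and Usp9y are close relatives, and the treatment of reads that match both is unstated in the sources used here.

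The 11 members whose mean stayed under 1 RPKM in both groups were left out of the main fit between groups: Usp40, Usp27x, Usp33, Usp31, Usp51, Usp35, Usp9y, Usp43, Usp18, Usp29 and Usp13. The groups overlapped for all 11. Usp18, which removes the ubiquitin-like protein ISG15 in the interferon response, averaged 0.13 ± 0.03 RPKM in Control against 0.16 ± 0.01 in Middle, on 15 to 28 reads per library. Usp29, an imprinted gene next to Peg3, was at 0.034 ± 0.005 and 0.030 ± 0.011 RPKM. The symbol rule would take in Usp17-like copies, but it found none under such a symbol in the deposited table.

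Known partner proteins were measured beside their proteases. WDR48, the shared activator of USP1, USP12 and USP46, had its gene at a mean of 36.2 RPKM, below Usp1 (172) and above Usp12 (21.3) and Usp46 (3.10). Wdr20, the other activator of USP12 and USP46, was at 3.82 RPKM and its relative Wdr20rt at 34.4. Gmps, a partner of USP7, was at 54.7 RPKM. Hgs and Stam2, which work with USP8 on endosomes, were at 80.0 and 15.5 RPKM, and Stam was at 0.836. Atxn7l3 and Eny2, which activate USP22, were at 4.42 and 6.38 RPKM beside 2.18 for Usp22. Of the 14 tested partner genes 10 lay above 0 in Middle against Control, 0 passed the test, and the median log2 fold change was 0.03, the same to 2 decimals as over all genes tested (0.03). Gmps averaged 51.8 ± 2.96 RPKM in Control against 57.7 ± 2.46 in Middle, Atxn7l3 was at 4.08 ± 0.21 and 4.75 ± 0.40, and Sart3, which brings USP4 and USP15 to the spliceosome, at 7.04 ± 0.32 and 7.75 ± 0.10, the 3 smallest p-values of the list.

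No member passed the test between Middle and Control. The question was whether expression of the family differed in the exposed testis. Differences were fitted on log2(RPKM + 1) for the 15040 genes whose mean reached 1 RPKM in Control, in Middle or in both, which kept 42 members, with limma-trend and Benjamini-Hochberg adjustment over all of them. For genes near 1 RPKM the added 1 draws log2 fold changes and their intervals toward 0. Adjusted p under 0.05 was reached by 0 of 42 members and by 0.0532% of all genes tested. The smallest adjusted p of a member was 0.178 (limma). Limma-voom on the recovered reads also called 0 members, of 52 tested, beside 0.0419% of all genes. At an unadjusted p under 0.05, 5 members lay higher and 6 lower in Middle, 11 of 42 in all, beside 11.7% of all genes higher and 9.02% lower. With 1 library left out, 1 to 4 members lay higher and 2 to 9 lower at that p. Over all genes the count in both directions together ran from 1444 of 15076 to 3922 of 15067, against 3116 of 15040 with all libraries. The highest count over all genes and the 9 lower members both came without Middle replicate 2. Shares by direction were not computed for these fits. The counts of members higher, of members lower and of all genes were each smallest without Control replicate 1. All 3 Middle libraries lay above all 3 Control libraries for 8 members (19.0%), beside 17.9% of all genes tested. They lay below for 6 members (14.3%), beside 11.4%. Both shares are near those of all genes. The median log2 fold change of the 42 members was -0.01, against 0.03 over all genes, with 20 above 0 and 22 below (55.9% and 44.1% of all genes). Without Middle replicate 1 the split was 27 above and 16 below of 43 tested, beside 57.7% of all genes above. It was 21 and 20 without Control replicate 2, and 22 and 19 without Control replicate 3. More members lay below 0 without Control replicate 1 (18 and 24), Middle replicate 2 (20 and 22) or Middle replicate 3 (19 and 22). The balance thus turned with several single libraries, most with Middle replicate 1. Over all genes the median log2 fold change was above 0 in each of these fits (0.017 to 0.033). The share of all genes above 0 was computed only with all libraries and without Middle replicate 1. Limma-voom without Middle replicate 1 gave 34 above and 18 below, with a median of 0.055 beside 0.036 over all genes. It called 0 members as well, where it called 0.745% of all genes. The median coefficient of variation over the tested members was 4.83% in Control and 7.02% in Middle.

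**Figure D3:**
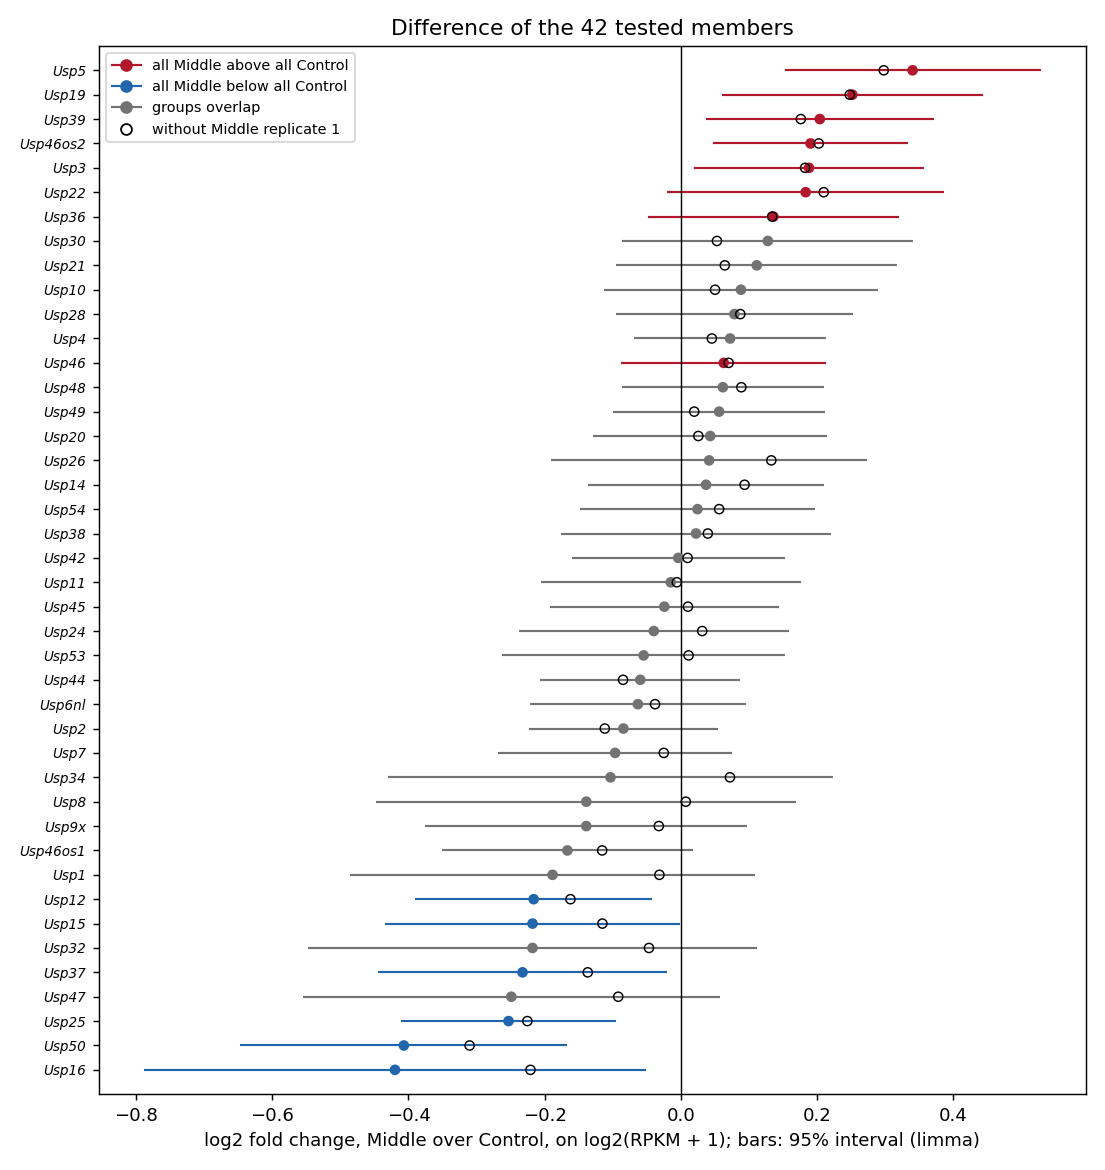
Log2 fold change of Middle over Control on log2(RPKM + 1) for the 42 tested members, with bars for the 95% interval of limma and open circles for the value without Middle replicate 1. Usp5 and Usp19 are at the top and Usp50 and Usp16 at the bottom, and the open circles of Usp1, Usp8, Usp32 and Usp47 lie close to 0.

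The 6 members with the largest positive differences were Usp5, Usp19, Usp39, Usp46os2, Usp3 and Usp22. They were taken for their size, so the separation of their groups adds nothing. Usp5 (chromosome 6, 124791982 to 124806447) was at 7.93, 9.12 and 8.74 RPKM in Control and 11.9, 10.2 and 11.4 in Middle, each Middle library above each Control library. Its ratio of means was 1.30 and its log2 fold change 0.34 (SE 0.08, adjusted p = 0.178, limma). Usp19 (chromosome 9, 108367801 to 108379536), a protease anchored in the endoplasmic reticulum, was at 10.8, 13.5 and 12.1 RPKM in Control and 14.7, 14.5 and 14.6 in Middle. Here the Middle libraries agreed closely while Control spread over a wider range, and the log2 fold change was 0.25 (SE 0.08, adjusted p = 0.186, limma).

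Usp39, a splicing factor whose protease domain lacks active-site residues, averaged 10 ± 0.40 RPKM in Control against 11.7 ± 0.81 in Middle. Usp3, which takes ubiquitin off histone H2A, was at 2.31 ± 0.12 and 2.77 ± 0.17 RPKM. Usp22, the H2B deubiquitinase of the SAGA coactivator, was at 1.69, 2.12 and 2.14 RPKM in Control and 2.26, 2.55 and 2.33 in Middle. None of the 3 had overlapping groups, and their log2 fold changes were 0.20, 0.19 and 0.18, with adjusted p-values of 0.195, 0.215 and 0.269 (limma). Without Middle replicate 1 the log2 fold changes of Usp5, Usp19, Usp39, Usp3 and Usp22 were 0.30, 0.25, 0.18, 0.18 and 0.21. Without Control replicate 1, the lowest library for each of these 5 genes, they were 0.29, 0.18, 0.17, 0.16 and 0.11. With all libraries and 0.01 added to RPKM in place of 1, they were 0.38, 0.27, 0.22, 0.26 and 0.27. Their order by size thus changed with the value added.

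The 6 members with the largest negative differences were Usp16, Usp50, Usp25, Usp47, Usp37 and Usp32. Usp16 (chromosome 16, 87251591 to 87280405), a histone H2A deubiquitinase of dividing cells, was at 17.4, 16.9 and 16.9 RPKM in Control and 9.24, 15.5 and 13.5 in Middle. All Middle libraries lay below Control, and replicate 1 lay far below the other 2. The log2 fold change was -0.42 (SE 0.16, adjusted p = 0.21, limma) and -0.22 without Middle replicate 1. Usp25 (chromosome 16, 76810594 to 76913668), a relative of Usp28 that acts on tankyrases, was at 32.6, 32.9 and 32.0 RPKM in Control and 26.04, 29.5 and 25.9 in Middle. Its Middle libraries lay below Control without replicate 1 standing apart, and the log2 fold change was -0.25 (SE 0.07, adjusted p = 0.178, limma) and -0.23 without that library.

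Usp37 was at 7.40, 7.33 and 7.14 RPKM in Control and 5.18, 6.53 and 6.55 in Middle, and Usp32, a Golgi protease, at 15.7, 16.1 and 15.5 RPKM in Control and 10.4, 16.4 and 14.2 in Middle. For Usp37 the groups did not overlap, and for Usp32 Middle replicate 2 was the highest library of all. The log2 fold changes were -0.23 (adjusted p = 0.219, limma) and -0.22 (adjusted p = 0.39, limma), and -0.14 and -0.05 without Middle replicate 1. Usp12 was outside these 6 and was singled out after its values were seen, at 23.0 ± 1.38 RPKM in Control against 19.6 ± 1.32 in Middle, with no overlap.

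Usp50, which is thought to lack protease activity, was at 15.03, 12.9 and 12.8 RPKM in Control and 8.58, 10.8 and 10.6 in Middle. No Middle library reached the lowest Control value, with a ratio of means of 0.738 and a log2 fold change of -0.41 (SE 0.10, adjusted p = 0.178, limma). Without Middle replicate 1 it was -0.31. Its promoter is the one printed above with none of the 4 motifs, and 6.57% of its exon bases are shared with Gm10774. Usp8, in the same locus, had a log2 fold change of -0.14 (SE 0.13, adjusted p = 0.548, limma) and 0.01 without Middle replicate 1.

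The series title concerns TGF-β1, and 4 members are known to act on TGF-β receptors or SMAD proteins. Usp4, which stabilizes the type I receptor, was at 20.1, 21.6 and 20.5 RPKM in Control and 22.7, 21.6 and 21.2 in Middle, with a log2 fold change of 0.07 (95% interval -0.07 to 0.21, adjusted p = 0.491, limma), and 0.05 without Middle replicate 1. Usp15, which acts on the receptor and on receptor-bound SMADs, was at 16.2, 15.6 and 16.1 RPKM in Control and 11.6, 14.4 and 14.9 in Middle. Its Middle libraries all lay below Control, with a log2 fold change of -0.22 (95% interval -0.43 to -0.00, adjusted p = 0.24, limma), and -0.12 without Middle replicate 1. Usp11 was at 1.02 ± 0.13 and 0.998 ± 0.07 RPKM, a log2 fold change of -0.01 (95% interval -0.21 to 0.18, adjusted p = 0.926, limma), which was also -0.01 without that library. Usp9x had one of -0.14 (95% interval -0.38 to 0.10, adjusted p = 0.437, limma), and of -0.03 without Middle replicate 1. Of the 4 genes 1 lay above 0 and 3 below, and 0 passed the test. Usp4 lay 1.25 to 1.38 times above Usp15 in Control and 1.43 to 1.95 times in Middle, as a description with no test.

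Among other roles, 8 of the 10 members noted for histones and chromatin were tested, and 4 lay above 0 and 4 below. The 5 members of DNA repair and the cell cycle split into 1 above and 4 below, with a median log2 fold change of -0.19, and -0.03 without Middle replicate 1. Usp1 had a log2 fold change of -0.19 (95% interval -0.49 to 0.11, adjusted p = 0.407, limma) with all libraries and -0.03 without that one. The mitochondrial outer membrane protease Usp30 averaged 3.47 ± 0.20 RPKM in Control against 3.90 ± 0.51 in Middle, with overlapping groups and a log2 fold change of 0.13 (adjusted p = 0.429, limma), or 0.05 without Middle replicate 1. Usp6nl was at 2.19 ± 0.06 and 2.06 ± 0.10 RPKM (adjusted p = 0.597, limma). Of these groups, 0 members passed the test.

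Besides Usp12, 15 tested members were outside the 26 named for their level, difference or role. They had log2 fold changes from -0.10 (Usp34) to 0.14 (Usp36) and adjusted p-values from 0.34 to 0.979 (limma), 10 of them above 0 and 5 below. Without Middle replicate 1 all 15 lay above 0, the 5 that had been below (Usp34, Usp24, Usp53, Usp45 and Usp42) at 0.07, 0.03, 0.01, 0.01 and 0.01. Usp34 and Usp24, very large proteins of the family, were at 5.87 ± 0.07 and 4.57 ± 0.23 RPKM in Control and 5.49 ± 1.29 and 4.43 ± 0.49 in Middle. Usp48 was at 7.54 ± 0.11 and 7.91 ± 0.40 RPKM, and Usp10, which works with G3BP proteins in stress granules, at 1.001 ± 0.14 and 1.13 ± 0.11. The groups of these 4 overlapped. Usp36, a nucleolar protease, was at 1.01 ± 0.13 and 1.203 ± 0.01 RPKM without overlap. Among the named members, Usp44, Usp2 and Usp7 had log2 fold changes of -0.06, -0.08 and -0.10 (adjusted p 0.59, 0.424 and 0.456, limma). With 1 library left out Usp44 ran from -0.09 (Control replicate 3) to -0.02 (Middle replicate 2). The values were -0.05 for Usp2 without Middle replicate 3 and -0.02 for Usp7 without Middle replicate 1. Usp47 was at -0.25 (adjusted p = 0.304, limma) and at -0.09 without Middle replicate 1, and Usp14 and Usp26 were both at 0.04 (adjusted p 0.781 and 0.818, limma). Without Middle replicate 1 they were at 0.09 and 0.13, and Usp26 was at 0.01 without Control replicate 3.

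**Figure D4:**
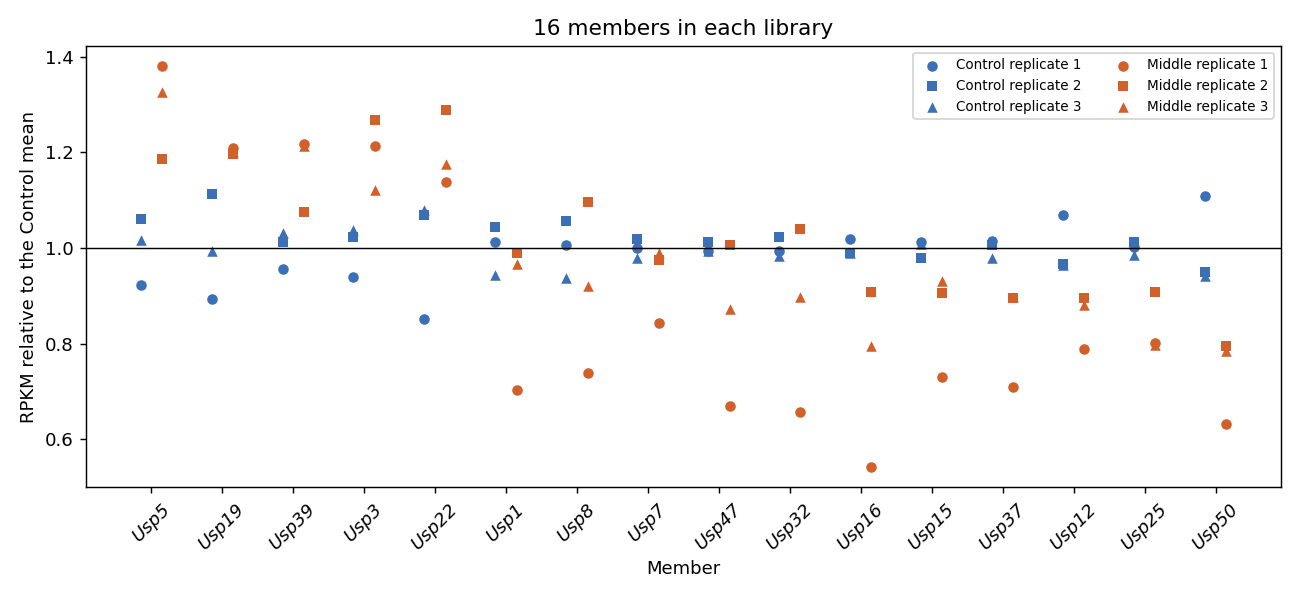
RPKM of 16 members in each library divided by the mean of the 3 Control libraries of that gene. Middle replicate 1 is the lowest point for Usp1, Usp8, Usp7, Usp47, Usp32, Usp16, Usp15, Usp37, Usp12 and Usp50, while for Usp5, Usp19, Usp39, Usp3 and Usp22 all Middle points lie above the Control points.

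The differences of the members varied with the GC content of their transcripts. Middle replicate 1 was the lowest of the 6 libraries for 19 of 42 tested members (45.2%), beside 28.4% of all genes tested. Among the 14 members with a GC content under 45%, it was the lowest for 13, beside 53.2% of all genes in that range, and among the 14 members at 50% or more it was the lowest for 0, beside 13%. The 14 members under 45% lay 11 below 0 and 3 above, with a median log2 fold change of -0.15, and 62.8% of all such genes lay below 0 and 37.2% above. The 14 members at 50% or more lay 12 above 0 and 2 below, with a median of 0.12, and 70.1% of all such genes lay above 0 and 29.9% below. The 14 members in between lay 9 below 0 and 5 above, beside 48.2% of such genes below, and Middle replicate 1 was the lowest for 6 of them, beside 31.5%. The members thus split by GC content in the same direction as the other genes.

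Over the 42 members, Spearman's rho between GC content and log2 fold change was 0.63 (Pearson's r 0.59), and over 14003 genes 0.35 (r 0.32). Genes are not independent replicates, all of them share the same 6 libraries, and the values are a description. Without Middle replicate 1 the rho was 0.40 over the members and 0.20 over 13932 genes. The median of the members under 45% was then -0.03 and that of the members at 50% or more was 0.06, with 6 of the former above 0 beside 47.4% of such genes, 13 of the latter beside 65.7% of such genes, and with 7 of the 14 in between above 0 beside 55.6%. After removal of each library's GC trend the rho was 0.30 over the members and -0.01 over all genes. Usp50 (-0.40), Usp16 (-0.28), Usp12 (-0.22) and Usp25 (-0.22) were still below 0 and Usp5 (0.27), Usp3 (0.21), Usp39 (0.18) and Usp19 (0.18) above 0 in that fit, and 0 of 42 members passed it. At an unadjusted p under 0.05, 5 members were higher and 6 lower in it, beside 12% and 9.1% of all genes. The value of Usp14, a low-GC gene, went from 0.04 to 0.16.

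**Figure D5:**
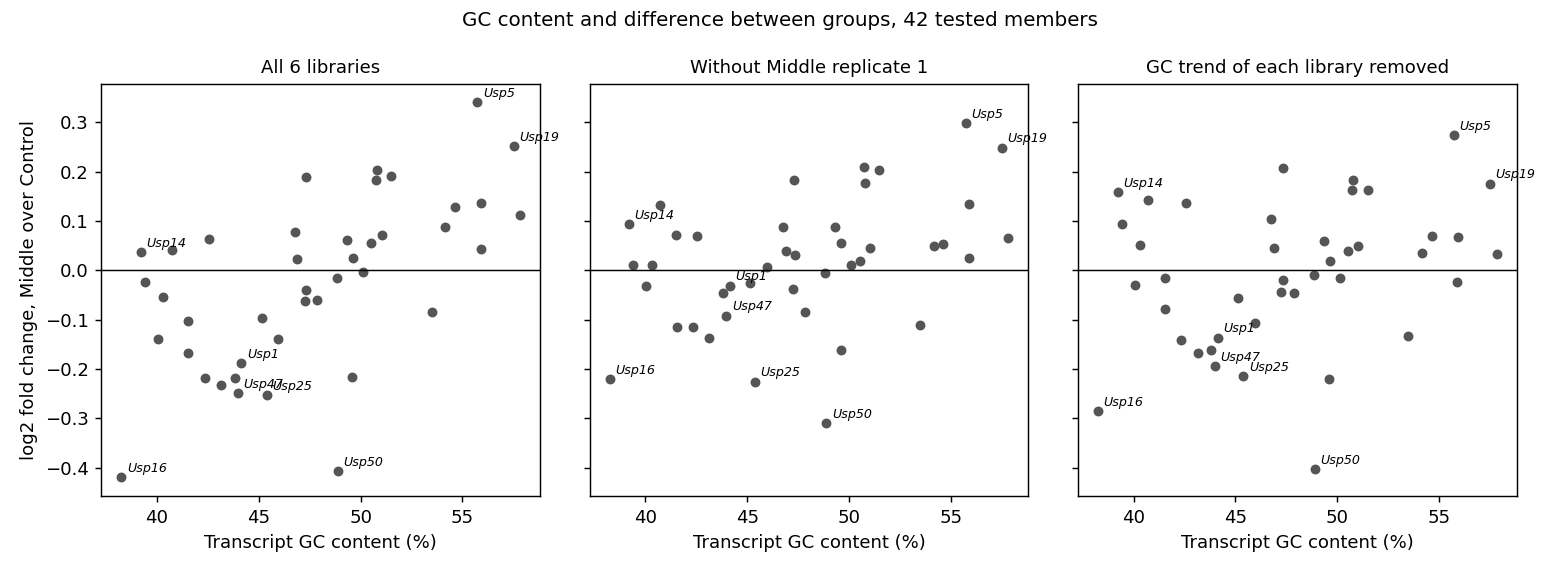
Log2 fold change of Middle over Control against transcript GC content for the 42 tested members, with all libraries, without Middle replicate 1, and after removal of each library's GC trend. Spearman's rho is 0.63 with all libraries and lower in the other panels (0.40 and 0.30).

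Markers of the cell types were read in the same comparison, and 0 of them passed the test. The summed RPKM of 7 spermatid markers was 27609 to 30587 in Control and 25944 to 28439 in Middle, and that of 6 spermatocyte markers was 1761 to 1815 and 1681 to 1749. The 6 Sertoli markers summed to 165 to 171 RPKM in Control and 173 to 183 in Middle, and the 6 spermatogonium markers to 14.3 to 15.8 and 16.2 to 20.2. The 3 peritubular markers summed to 35.2 to 40.0 and 39.3 to 51.3 RPKM, the 5 Leydig markers to 235 to 283 and 267 to 280.5, the 4 macrophage markers to 5.80 to 8.97 and 5.56 to 7.96, and the 4 red blood cell markers to 10.4 to 13.6 and 11.8 to 16.4. The Sertoli, spermatogonium and spermatocyte sums of the groups did not overlap, but 1 or 2 genes carried each. Clu made up most of the Sertoli sum (means of 137 RPKM in Control and 141 in Middle, with overlapping groups). Ldhc made up most of the spermatocyte sum (1536 and 1495). Stra8 and Dmrt1, the only 2 spermatogonium markers tested, carried that sum and lay above 0. Kit, Sall4 and Zbtb16 had higher means in Middle, and Gfra1 a lower one (0.479 and 0.397). All 7 spermatid markers had a log2 fold change below 0 and all 5 tested Sertoli markers one above 0. Of the 6 spermatocyte markers 2 lay above 0 and 4 below. Of the 5 Leydig markers 2 lay above 0 and 3 below, with a median log2 fold change of -0.25, and of -0.34 without Middle replicate 1. Most of the Leydig sum was Insl3, with a mean of 213 RPKM in Control and 237 in Middle, while Star, which brings cholesterol into mitochondria for steroid synthesis, was at 5.80 and 3.44. The part of the marker genes in the values of the members was not tested.

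The rest of the ubiquitin system was read from the same fit. Of 28 tested genes listed as other cysteine deubiquitinases or their relatives, 17 lay above 0 and 11 below. At an unadjusted p under 0.05 (limma) these were 4 and 3, beside 11.7% and 9.02% of all genes, and 0 passed after adjustment. The list also holds Cyld, Uspl1 and Pan2, which are not ubiquitin proteases of other families. Mindy4, which cuts long ubiquitin chains, averaged 11.3 ± 0.80 RPKM in Control against 13.2 ± 0.41 in Middle. Atxn3, the Machado-Joseph disease protease, was at 23.8 ± 2.74 and 19.0 ± 1.83 RPKM, and Otud4 at 16.4 ± 0.14 and 14.5 ± 0.51. These were the 3 smallest p-values of the list, with adjusted p of 0.188, 0.188 and 0.192 (limma).

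All 9 tested JAMM family genes, metalloproteases and their inactive relatives, lay above 0, with a median log2 fold change of 0.16 and of 0.11 without Middle replicate 1, 3 of them at an unadjusted p under 0.05 (11.7% of all genes lay higher at that p), and 0 passed after adjustment. Over all genes tested 55.9% lay above 0. Stambp, an endosomal deubiquitinase, was at 3.01, 3.14 and 3.09 RPKM in Control and 3.68, 3.65 and 4.25 in Middle (adjusted p = 0.178, limma). The translation factor subunits Eif3f and Eif3h were at 19.7 ± 0.83 and 23.98 ± 2.85, and at 151.7 ± 2.41 and 168 ± 8.60 RPKM. Genes of ubiquitin, of ubiquitin-like proteins and of their activating enzymes lay above 0 in 8 of 9 tested. Their median was 0.16, and 0.11 without Middle replicate 1. Of these genes, Uba2, Uba3 and Nedd8 belong to ubiquitin-like proteins and not to ubiquitin itself. The ubiquitin gene Ubb averaged 3178 ± 82.8 RPKM in Control against 3558 ± 235 in Middle, far above every protease of the family. The smallest p-values of that list were those of Uba2, at 23.0 ± 1.06 and 26.6 ± 1.51 RPKM, of the Y-linked Uba1y, at 3.36 ± 0.42 and 4.11 ± 0.11, and of Rps27a, at 40.0 ± 0.93 and 48.5 ± 6.95. Of the 9, 5 lay higher at an unadjusted p under 0.05, beside 11.7% of all genes, and 0 passed after adjustment.

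Of 8 genes listed for the short arm of the Y chromosome, which include Usp9y, 3 were tested. Zfy2 averaged 1.74 ± 0.11 RPKM in Control against 1.24 ± 0.14 in Middle and Eif2s3y was at 7.20 ± 0.30 and 5.66 ± 1.10, while Uba1y lay on the other side of 0, and 0 passed after adjustment (adjusted p 0.178, 0.213 and 0.201, limma).

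The non-coding genes opposite Usp46 lay on different sides of 0. Usp46os1 (chromosome 5, 74174876 to 74190341) was at 24.2, 21.7 and 25.2 RPKM in Control and 19.5, 21.6 and 21.9 in Middle, and the groups overlapped (log2 fold change -0.17, adjusted p = 0.268, limma). Usp46os2 (chromosome 5, 74192929 to 74200664) was at 8.80, 9.23 and 9.08 RPKM in Control and 10.3, 10.9 and 10.2 in Middle, each Middle library above Control (log2 fold change 0.19, adjusted p = 0.183, limma). Usp46 itself was at 3.01 ± 0.11 and 3.18 ± 0.04 RPKM. Usp46 shares 14.6% of the exon bases of Usp46os1 and 29.8% of those of Usp46os2, so the reads of these genes are uncertain.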

How the data were processed

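RNA was measured in 6 mouse testis libraries, grouped as Control and Middle by their titles. The submitters' processing notes name fastp 0.23.0 and GRCm39. Aligner, counter and strand setting are unstated in the sources used here. The authors deposited RPKM per gene and library, with gene length in the file headers. Each value times gene length was a whole multiple of 1 step per library (tolerance 0.001, 100% of values), so reads were recovered. Same-group libraries differed by more than sampling noise, and each counted as 1 replicate.

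Genes whose mean reached 1 RPKM in either group were tested on log2(RPKM + 1), pseudocount 1, with limma 3.58.1 (R 4.3.3), trend in the prior variance, no covariate, Benjamini-Hochberg over 15040 genes, two-sided, threshold 0.05. The fit was run on simulated counts of independent genes, without the GC trend and the wide library differences seen here. That run therefore does not show how the fit behaves on these data. GC content is that of the longest GENCODE M21 transcript of the same symbol (34736 genes and all 53 members matched, none of its coordinates used). The GC trend was a loess of each library's deviation on GC content (span 0.5). Limma-voom used genes with at least 10 reads in 3 libraries.

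Named members were those past the threshold, the 8 highest in level, the 6 largest differences on each side, 20 fixed for their role, and up to 3 smallest p-values per described list. Members and lists were chosen with earlier results of these data known. Motifs, related sets and 2 alternatives were added after seeing the data.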

Additional observations from a re-analysis of the deposited data

How the results depend on the processing

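Across the 16 alternatives, 2 of them chosen after seeing the data (removal of the GC trend without Middle replicate 1, and limma-voom without Middle replicate 1), 0 members passed in any fit. The smallest adjusted p of a member over these fits was 0.0581, in limma-voom without Middle replicate 1, a fit in which 176 of all genes passed (limma). The count over all genes was 8 with all libraries, 0 with no filter on low values (4204 at an unadjusted p under 0.05, limma), and 0 with the replicate block (2267 at an unadjusted p under 0.05). Correlations of the deviations of same-numbered libraries were -0.15, -0.12 and 0.0054, and those of differently numbered libraries ran from -0.09 to 0.16. The deviations of 3 libraries sum to 0 for each gene, so these values cannot tell whether same-numbered libraries were paired. Pairing is unstated in the sources used here. The count over all genes was 0 to 3 with 1 library left out: 3 when Control replicate 1 was dropped, 1 when Middle replicate 1 was, and 0 for each of the others. The median log2 fold change of the members was -0.01, and -0.10 over the 25 members with a mean of at least 5 RPKM. It was -0.035 to 0.026 with 1 library left out, 0.026 with the GC trend removed and without Middle replicate 1, and 0.055 in limma-voom without Middle replicate 1. Of 26 named and tested members, 22 kept their direction in every fit that tested them. Of the other 4, Usp8 (-0.14 with all libraries) was at 0.0075 without Middle replicate 1, at 0.022 when the GC trend was removed as well and at 0.0015 in limma-voom. Its range with 1 library left out was -0.27 to 0.0075. Usp9x was at 0.017 and Usp11 at 0.00045 with the GC trend removed and without Middle replicate 1. With 1 library left out, Usp11 ran from -0.070 to 0.0051 and Usp14 from -0.011 to 0.094, the change of sign coming without Middle replicate 3. Causes of these changes were not tested. Members under 1 RPKM rest on few reads.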
